A study of Homo sapiens with 4 samples.

Results

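The 34 genes described here encode the enzymes of cholesterol and fatty acid synthesis and the regulators that switch them on. They were taken by gene name from the deposited gene tables, which list 29209 genes. A row was used for 33 of the 34, all of which passed the filter on low counts, and the sterol dehydrogenase NSDHL was not analysed here. The cells were HaCaT, a spontaneously immortalised human keratinocyte line. The line labelled TCN1-overexpression (TCN1_OE, 2 libraries) carried TCN1 by lentivirus, and the other was a negative control line (NC, 2 libraries). Both were grown in DMEM with 10% fetal bovine serum, which itself supplies lipoprotein cholesterol and fatty acids, and polyA RNA was sequenced from cells taken 48 hours into culture. The labels do not give the promoter of the vector, whether a line is 1 clone, what vector NC received, or whether the 2 libraries of a line came from separate cultures. The p-values therefore measure only the spread between libraries, which may be technical.

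Cells make cholesterol from acetyl-CoA through mevalonate, squalene and a chain of sterol intermediates, and make fatty acids from the same acetyl-CoA. The transcription factors SREBP1 and SREBP2 (genes SREBF1 and SREBF2) switch on both sets of genes. When membrane sterol is plentiful, INSIG proteins hold SCAP, the escort of the SREBPs, in the endoplasmic reticulum, and the genes stay low. In the epidermis both lipids go into the barrier between cornified cells, so keratinocytes are known to make large amounts of them.

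TCN1, the gene of a vitamin B12 carrier in secretions, had 1700 and 1253 counts in TCN1_OE and 50 and 17 counts in NC. Library totals ran from 14756073 to 16586500 counts in TCN1_OE and from 11593377 to 19973550 counts in NC. All 7 keratinocyte markers were detected, with a summed level of 6408 to 7082 FPKM (fragments per kilobase, corrected for library size) in TCN1_OE and 5892 to 6380 FPKM in NC. KRT5 and KRT14, the keratins of basal cells, made up most of that sum and were not called. KRT1 and KRT10, the keratin pair of differentiating cells, were called higher in TCN1_OE. KRT1 had 376.3 and 394.2 FPKM in TCN1_OE and 222.7 and 229.0 FPKM in NC, at 0.77 ± 0.08 on the log2 scale (edgeR adjusted p of 0.00707). KRT10 had 245.1 and 244.0 FPKM in TCN1_OE and 137.5 and 134.2 FPKM in NC, at 0.84 ± 0.08 (edgeR adjusted p of 0.00376). Both were called under 9 of 11 alternatives, all but the 2 limma fits. The part of this keratin difference in the levels of the lipid genes was not tested. Markers of endothelial cells, fibroblasts, leukocytes and melanocytes, summed for each cell type apart, reached at most 3.07 FPKM in any library, in melanocytes. Only 2 of 4 endothelial and 4 of 7 fibroblast markers were measured. In bulk RNA, fewer cells that express a gene and less of its RNA per cell cannot be told apart.

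None of the 33 genes passed the edgeR quasi-likelihood test at an adjusted p under 0.05, where 0.285% of the 15113 genes tested were called higher and 0.212% lower. At an unadjusted p under 0.05, 4 of the 33 were higher (STARD4, SCD, INSIG1 and SC5D) and 1 was lower (ELOVL5). The same rule took 6.00% of all genes tested as higher and 6.81% as lower. DESeq2 called 1 of the 31 to which it gave an adjusted p, SCD as higher, against 0.815% of all genes called higher and 0.935% lower. The limma fit on log2(FPKM + 0.5) called 0, but it called only 0.00662% of all genes higher and 0% lower. Its lack of calls therefore says little about these genes. Both TCN1_OE libraries lay above both NC libraries for 8 of the 33 genes and below them for 5, where 21.2% and 21.8% of all genes did so. A positive log2 fold change was found for 23 of the 33, or 69.7%, beside 50.3% of all genes tested. The median over the 33 genes was 0.06 on the log2 scale and that over all genes tested was 0.0016. For 31 of the 33 the 95% interval of the fold change lay within 2-fold in either direction, and for 25 it lay within 1.5-fold.

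Levels spanned a wide range, from ACACA, CYP51A1 and FDFT1 at no more than 0.635 FPKM in any library to SCD at no less than 518.4 FPKM. All 33 genes together took 0.733% and 0.792% of the counts in the TCN1_OE libraries and 0.638% and 0.694% in the NC libraries. SCD alone gave 52.8% and 49.8% of their summed FPKM in TCN1_OE and 49.0% and 46.0% in NC. SREBF1 came next by mean FPKM, before FASN, ACLY and SREBF2.

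**Figure D1:**
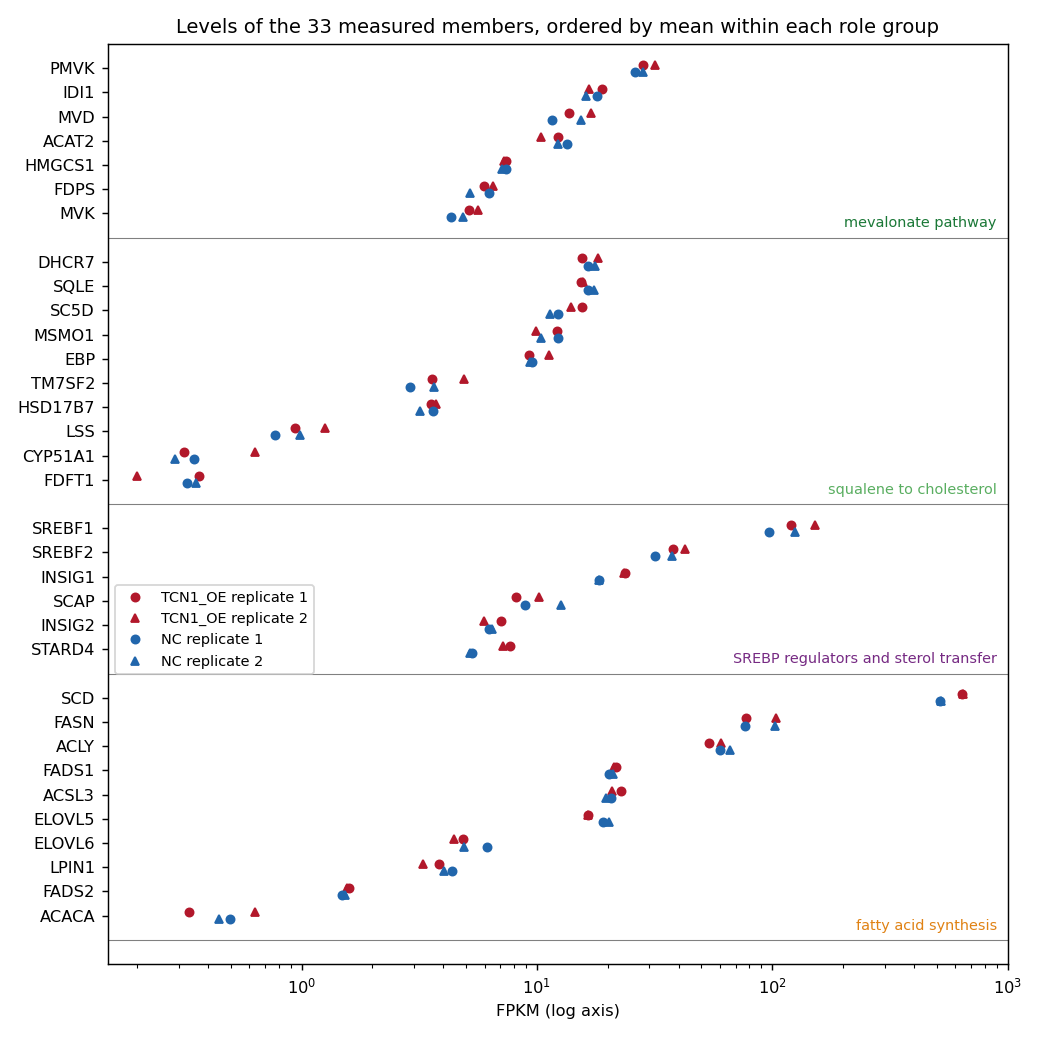
Level of each measured gene in FPKM on a log axis, by role group and ordered by mean within it. Red points are the 2 TCN1_OE libraries and blue points the 2 NC libraries, with circles for replicate 1 and triangles for replicate 2. SCD lies between 518.4 and 645.8 FPKM, far above the other genes, and FDFT1 between 0.20 and 0.37 FPKM.

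Of the 6 regulators, sterol transfer protein included, 5 were positive, with a median log2 fold change of 0.25, and none passed the test. The median ranged from 0.096 without NC replicate 1 to 0.35 without NC replicate 2, and without NC replicate 1 it lay below the 0.13 of the genes from squalene to cholesterol. STARD4 (ENSG00000164211), a cytosolic protein that carries cholesterol between membranes, had 7.66 and 7.19 FPKM in the TCN1_OE libraries and 5.30 and 5.19 FPKM in the NC libraries. Both TCN1_OE libraries lay above both NC libraries. Its log2 fold change of 0.50 ± 0.11 (SE), with a 95% interval of 0.24 to 0.75, was the smallest p of the 33, at an edgeR adjusted p of 0.101. With no filter on low counts STARD4 was called, at an edgeR adjusted p of 0.0298, where that fit called 0.685% of all genes higher. INSIG1 (ENSG00000186480), the sterol-regulated retention factor of SCAP and itself a classical SREBP target, had 23.6 FPKM in both TCN1_OE libraries and 18.4 and 18.3 FPKM in the NC libraries. The groups stood apart, at 23.6 ± 0.030 and 18.3 ± 0.047 FPKM (SD, n = 2 each), and the log2 fold change was 0.36 ± 0.10, with an interval of 0.14 to 0.58 and an edgeR adjusted p of 0.160. INSIG2, its paralog, had 7.02 and 5.95 FPKM in TCN1_OE and 6.24 and 6.44 FPKM in NC, so its groups overlapped. INSIG2 stood at 0.03 ± 0.14, with an interval of -0.27 to 0.33 that overlaps that of INSIG1. The difference between the paralogs was not tested.

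The 2 SREBP genes themselves were higher on average, with overlapping groups. SREBF1 had 119.7 and 152.0 FPKM in TCN1_OE and 97.1 and 125.1 FPKM in NC. In each line replicate 2 was the higher library, and the higher NC library exceeded the lower TCN1_OE library. Its log2 fold change was 0.29 ± 0.14, with an interval of -0.03 to 0.61 and an edgeR adjusted p of 0.445. With single libraries left out its value changed: SREBF1 stood at 0.49 without NC replicate 2 and at 0.46 without TCN1_OE replicate 1. It stood at 0.11 without NC replicate 1 and at 0.09 without TCN1_OE replicate 2. Over all alternatives its log2 fold change lay between 0.09 and 0.49. SREBF2 had 37.8 and 42.5 FPKM in TCN1_OE and 31.9 and 37.6 FPKM in NC. Its log2 fold change was 0.21 ± 0.11, with an interval of -0.04 to 0.45 and an edgeR adjusted p of 0.465. SCAP, the escort, was the 1 regulator with a negative value, -0.23 ± 0.18, with 8.14 and 10.2 FPKM in TCN1_OE and 8.89 and 12.6 FPKM in NC. It too was higher in replicate 2 of each line.

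**Figure D2:**
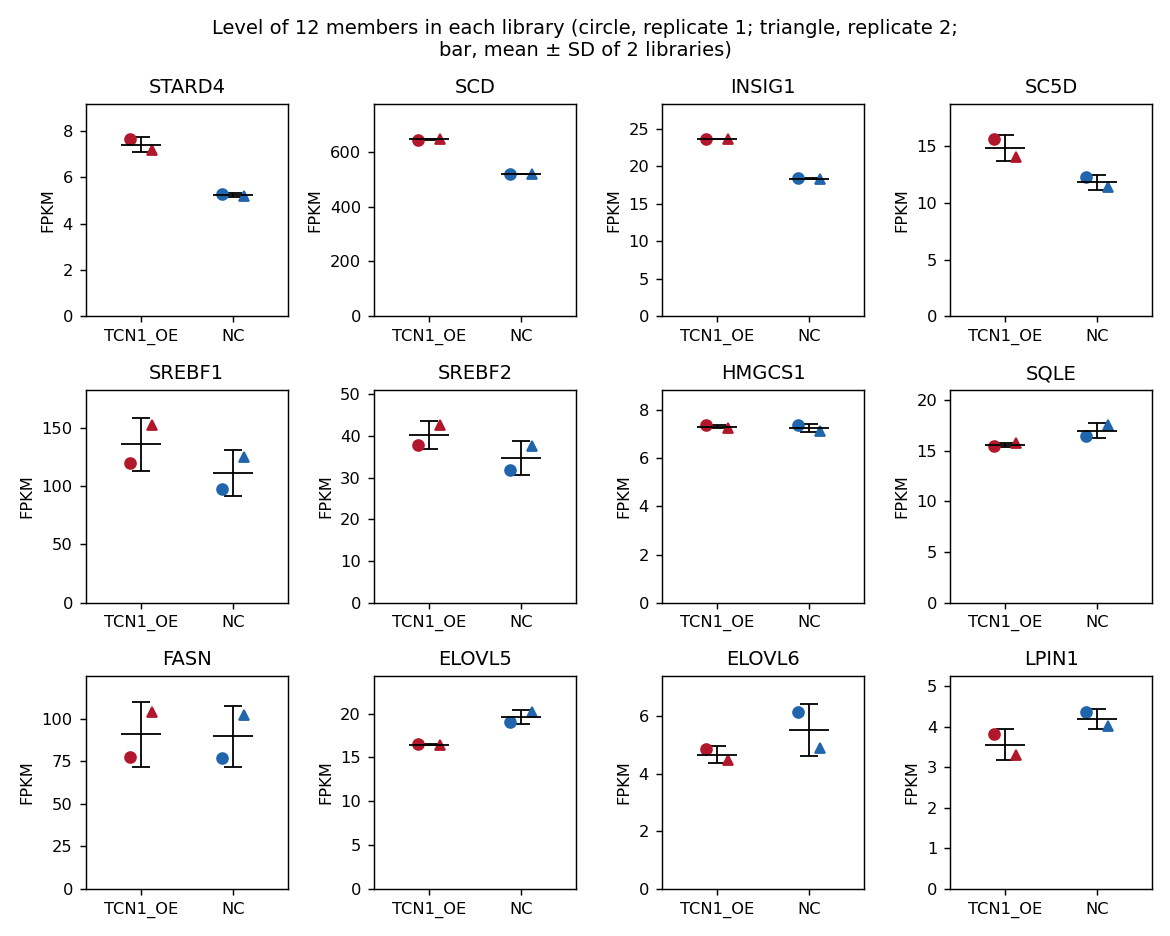
FPKM of 12 of the genes in each library, TCN1_OE left of NC in each panel, with axes that start at 0. Circles are replicate 1, triangles replicate 2, and bars the mean ± SD of 2 libraries. STARD4, SCD, INSIG1 and SC5D show 2 separate groups, higher in TCN1_OE. The groups of SQLE, ELOVL5, ELOVL6 and LPIN1 do not overlap either, and are lower in TCN1_OE. In SREBF1, SREBF2 and FASN the 2 libraries of a line lie far apart.

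The promoters of STARD4, SCD and INSIG1 are shown because these 3 genes had the smallest p. For each of them both TCN1_OE libraries lay above both NC libraries, which held for 8 of the 33 genes and for 21.2% of all genes tested. That of SREBF2 was added after the search because it alone among the genes held the core of the sterol response element. Each window runs from 250 bases before to 50 bases after the annotated start (RefSeq, GRCh38.p14), 5′ to 3′ on the strand of the gene. Capitals mark CCAAT (the NF-Y box), GGGCGG (the Sp1 box) and TCACNCCAC (the core of the sterol response element), each searched on both strands, so that ATTGG and CCGCCC are capitals too. Neighbouring Sp1 boxes can overlap. NF-Y and Sp1 are known as partners of the SREBPs at such promoters. The windows are STARD4 at chr5:111512486-111512785 on the minus strand, SCD at chr10:100346983-100347282, INSIG1 at chr7:155297628-155297927 and SREBF2 at chr22:41832855-41833154, all 3 on the plus strand.
STARD4: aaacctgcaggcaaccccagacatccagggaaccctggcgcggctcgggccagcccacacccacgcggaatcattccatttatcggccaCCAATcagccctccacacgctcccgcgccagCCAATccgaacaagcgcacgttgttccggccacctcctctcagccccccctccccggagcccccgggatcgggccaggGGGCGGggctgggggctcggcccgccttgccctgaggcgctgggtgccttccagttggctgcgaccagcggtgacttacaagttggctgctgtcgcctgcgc
SCD: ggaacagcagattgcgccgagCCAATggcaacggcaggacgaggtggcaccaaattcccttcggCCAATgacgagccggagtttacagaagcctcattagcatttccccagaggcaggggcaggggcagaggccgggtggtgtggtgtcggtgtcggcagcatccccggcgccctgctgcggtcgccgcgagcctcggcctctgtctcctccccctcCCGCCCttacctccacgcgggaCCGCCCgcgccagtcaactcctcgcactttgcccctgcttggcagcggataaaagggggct
INSIG1: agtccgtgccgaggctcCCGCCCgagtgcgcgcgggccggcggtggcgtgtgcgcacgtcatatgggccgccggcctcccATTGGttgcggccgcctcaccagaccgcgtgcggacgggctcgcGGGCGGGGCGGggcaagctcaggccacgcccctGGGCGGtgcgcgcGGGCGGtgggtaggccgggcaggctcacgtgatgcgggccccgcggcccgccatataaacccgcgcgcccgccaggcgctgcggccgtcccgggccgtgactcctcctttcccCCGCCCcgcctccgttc
SREBF2: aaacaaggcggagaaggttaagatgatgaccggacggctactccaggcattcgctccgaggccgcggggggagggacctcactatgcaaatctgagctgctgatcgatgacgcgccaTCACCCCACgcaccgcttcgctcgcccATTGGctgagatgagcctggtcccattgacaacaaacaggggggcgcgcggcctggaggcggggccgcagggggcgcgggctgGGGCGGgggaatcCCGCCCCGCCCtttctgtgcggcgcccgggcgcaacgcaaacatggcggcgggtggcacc

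Of the 34 genes, 30 had at least 1 such window in the RefSeq table and 9 of these had more than 1. CCAAT was found for 22 of the 30, or 73.3%, and for 39.7% of the 27305 gene symbols in the table. GGGCGG was found for 28 of the 30, or 93.3%, and for 48.3% of all symbols. TCACNCCAC was found for 1 of the 30, SREBF2, where it begins 133 bases before the start, and for 1.39% of all symbols. The 27305 symbols were not limited to genes that passed the filter on low counts, as the measured genes described here did. The shares therefore compare unlike sets. A match is a description of letters and not evidence of binding, and a response element outside the window or with other letters would not be found.

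Among the 7 genes of the mevalonate pathway 6 were positive, the median was 0.11 and the range -0.19 to 0.23, and none passed. MVK, mevalonate kinase, had 5.13 and 5.62 FPKM in TCN1_OE and 4.32 and 4.86 FPKM in NC, groups that did not overlap. It stood at 0.23 ± 0.12 (edgeR adjusted p of 0.478). The next 2 enzymes, the kinase PMVK and the decarboxylase MVD, had overlapping groups. PMVK, the highest of the 7, had 28.3 and 31.9 FPKM in TCN1_OE and 26.0 and 28.1 FPKM in NC, and stood at 0.15 ± 0.13. MVD had 13.7 and 17.0 FPKM in TCN1_OE and 11.6 and 15.4 FPKM in NC, and stood at 0.19 ± 0.16. ACAT2, the cytosolic thiolase that opens the pathway, went the other way, with 12.3 and 10.4 FPKM in TCN1_OE and 13.5 and 12.3 FPKM in NC. Both TCN1_OE libraries lay just below both NC libraries, at a log2 fold change of -0.19 ± 0.13. Of the 4299 exonic bases of ACAT2 in GENCODE 29, 52.3% lie under genes of the opposite strand. The FPKM implies a length of 2639 bases, so the overlap in the gene model that was counted may differ. The kit did not mark strand, so reads of ACAT2 and its partners cannot be told apart where they overlap. HMGCS1, the cytosolic HMG-CoA synthase and one of the most sterol-responsive genes known, was almost level, with 7.37 and 7.27 FPKM in TCN1_OE and 7.37 and 7.13 FPKM in NC. Its log2 fold change was 0.0096 ± 0.11, with an interval of -0.23 to 0.25. The isomerase IDI1 stood at 0.06 ± 0.11 and the farnesyl diphosphate synthase FDPS at 0.11 ± 0.15.

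Among the 10 measured genes from squalene to cholesterol, 6 were positive and 4 negative, with a median of 0.10 and a range of -0.25 to 0.55. SC5D (ENSG00000109929), a sterol desaturase near the end of the chain, had 15.6 and 14.0 FPKM in TCN1_OE and 12.3 and 11.4 FPKM in NC. The groups did not overlap, and the log2 fold change was 0.32 ± 0.10, with an interval of 0.11 to 0.53 and an edgeR adjusted p of 0.195. TM7SF2, a sterol reductase, had 3.59 and 4.91 FPKM in TCN1_OE and 2.89 and 3.64 FPKM in NC. Its mean difference, 0.38 ± 0.21 on the log2 scale, came with overlapping groups, since replicate 2 exceeded replicate 1 in both lines. LSS, lanosterol synthase, had 0.94 and 1.25 FPKM in TCN1_OE and 0.77 and 0.99 FPKM in NC, and stood at 0.33 ± 0.24. SQLE, squalene epoxidase and a rate-limiting step, had 15.4 and 15.7 FPKM in TCN1_OE and 16.4 and 17.5 FPKM in NC. It lay lower in both TCN1_OE libraries, at -0.13 ± 0.10 with an interval of -0.36 to 0.10. DHCR7, which makes the last reduction to cholesterol and was the highest of these genes, had 15.5 and 18.1 FPKM in TCN1_OE and 16.4 and 17.7 FPKM in NC, and its groups overlapped at -0.02 ± 0.11. The sterol oxidase MSMO1, the ketosterol reductase HSD17B7 and the isomerase EBP stood at -0.05 ± 0.14, 0.09 ± 0.16 and 0.12 ± 0.16, all with overlapping groups. HSD17B7 has a pseudogene of near-identical sequence, so its counts are uncertain.

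Low counts set a limit for FDFT1 and CYP51A1. FDFT1, squalene synthase, had 31 and 15 counts in TCN1_OE and 33 and 21 counts in NC. CYP51A1, lanosterol demethylase, had 22 and 39 counts in TCN1_OE and 29 and 14 counts in NC. At such counts the 95% intervals were the widest of the 33, -1.17 to 0.67 for FDFT1 and -0.42 to 1.52 for CYP51A1, and each held a change of 2-fold in 1 direction. Of the exonic bases of CYP51A1, 83.2% lie under another annotated gene, against 4.17% for FDFT1 (GENCODE 29). For CYP51A1 the FPKM implies a length of 4171 bases, against 3584 in GENCODE 29, so the overlap in the gene model counted may differ. The sources used here do not say how reads under more than 1 gene were counted. The part of such overlap in these low counts was not tested.

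The 10 genes of fatty acid synthesis split, with 6 positive and 4 negative and a median of 0.02. SCD (ENSG00000099194), the desaturase that makes oleic acid from stearic acid, had 643.3 and 645.8 FPKM in TCN1_OE and 518.4 and 519.2 FPKM in NC. The lines averaged 644.6 ± 1.80 FPKM in TCN1_OE and 518.8 ± 0.53 FPKM in NC (SD, n = 2 each), with no overlap. On the log2 scale this was 0.31 ± 0.08, the smallest SE of the 33, with an interval of 0.14 to 0.48 and an edgeR adjusted p of 0.128. DESeq2 called SCD, at an adjusted p of 0.0463.

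FASN, ACLY and ACACA, which make palmitate from citrate, had intervals that held 0. FASN, fatty acid synthase, had 77.4 and 104.1 FPKM in TCN1_OE and 76.9 and 102.2 FPKM in NC. The libraries of a line were far apart, and the log2 fold change was 0.015 ± 0.17 with an interval of -0.39 to 0.42. It ranged from -0.23 to 0.24 when each library was left out in turn. ACLY, which supplies cytosolic acetyl-CoA, had 54.1 and 60.7 FPKM in TCN1_OE and 59.7 and 66.1 FPKM in NC, at -0.13 ± 0.10 with overlapping groups. ACACA, acetyl-CoA carboxylase, had 72 and 122 counts in TCN1_OE and 129 and 67 counts in NC, so its value of 0.03 ± 0.30 has an interval of -0.64 to 0.70 and took either sign as libraries were left out, from -0.52 to 0.43.

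Besides ACLY, the negative values were those of ELOVL5, ELOVL6 and LPIN1. ELOVL5, which elongates polyunsaturated fatty acids, had 16.5 and 16.4 FPKM in TCN1_OE and 19.1 and 20.2 FPKM in NC. The groups did not overlap, and the log2 fold change was -0.26 ± 0.10, with an interval of -0.49 to -0.03 and an edgeR adjusted p of 0.326. ELOVL6, which elongates saturated fatty acids such as palmitate, had 4.87 and 4.46 FPKM in TCN1_OE and 6.16 and 4.89 FPKM in NC. NC replicate 2 lay just above the TCN1_OE libraries and NC replicate 1 well above them, at -0.25 ± 0.13 with an edgeR adjusted p of 0.478. LPIN1, a phosphatidate phosphatase of glycerolipid synthesis, had 3.83 and 3.29 FPKM in TCN1_OE and 4.37 and 4.01 FPKM in NC, again without overlap, at -0.24 ± 0.12 with an edgeR adjusted p of 0.437. The desaturases FADS1 and FADS2 and the acyl-CoA synthetase ACSL3 lay slightly higher in both TCN1_OE libraries, at 0.05 ± 0.08, 0.06 ± 0.15 and 0.11 ± 0.08. FADS1 and FADS2 lie on opposite strands and share exonic bases, 5.57% of those of FADS1 under another gene.

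**Figure D3:**
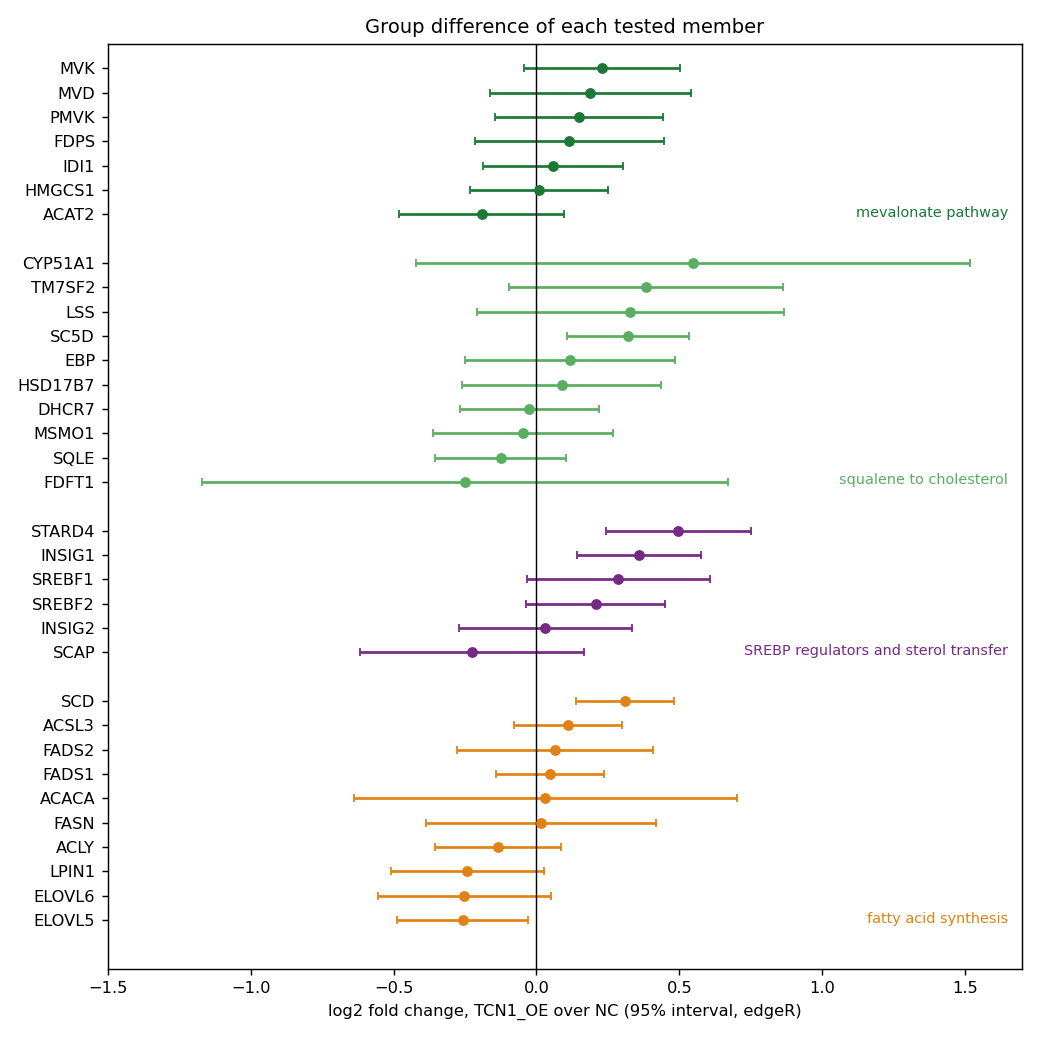
Log2 fold change of each tested gene, TCN1_OE over NC, with its 95% interval from edgeR, by role group. The intervals of STARD4, INSIG1, SC5D and SCD lie above 0 and that of ELOVL5 below it, before adjustment for the number of genes tested, and those of FDFT1, CYP51A1 and ACACA are the widest.

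Set side by side, the median log2 fold change was 0.11 for the 17 measured sterol synthesis genes, 0.25 for the 6 regulator and transfer genes and 0.02 for the 10 fatty acid genes. The sterol median exceeded the fatty acid median by 0.09, a difference described without a test because the lists were chosen with earlier results known. It ranged from 0.014 without NC replicate 2 to 0.21 without TCN1_OE replicate 2. In summed FPKM, the 17 sterol genes gave 168 and 175 in TCN1_OE and 162 and 164 in NC. The 10 fatty acid genes gave 846 and 879 in TCN1_OE and 728 and 759 in NC, of which SCD made up 76.0% and 73.5% in TCN1_OE and 71.3% and 68.4% in NC. Both sums were higher in both TCN1_OE libraries. The fatty acid sum is mostly SCD, so it does not show that the other fatty acid genes were higher, and the fatty acid median was near 0.

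FABP4, a fatty acid-binding protein of lipid-storing cells that was on the list of sebocyte markers, differed in the same direction as SCD. It had 18.7 and 17.3 FPKM in TCN1_OE and 10.8 and 8.06 FPKM in NC, a difference of 0.91 ± 0.17 on the log2 scale (edgeR adjusted p of 0.0544). FABP4 was called by DESeq2, with no filter on low counts and with a replicate block. Those fits called 0.815%, 0.685% and 8.05% of all genes higher. It was not called with RLE factors or by limma, among others. Over all 11 alternatives its log2 fold change lay between 0.74 and 1.15. The 4 of 6 sebocyte markers that were measured summed to 17.6 to 18.9 FPKM in TCN1_OE and 8.30 to 11.0 FPKM in NC. FABP4 made up nearly all of that, since PLIN1 lay at 0.09 to 0.21 FPKM and KRT79 and AWAT1 had at most 4 counts in any library, with AWAT1 at 0 in 3 of the 4. A link between the difference in FABP4 and that in SCD was not tested.

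For most of the genes the 2 libraries of at least 1 line differed by as much as the lines did. The group difference exceeded both replicate differences for 9 of the 33 genes, or 27.3%, and for 32.5% of all genes tested. The 9 were STARD4, SCD, INSIG1, SC5D, ELOVL5, LPIN1, MVK, SQLE and ACSL3. In 23 of the 33 genes replicate 2 differed from replicate 1 in the same direction in both lines, 15 of them upward and 8 downward, where 10107 of the 15113 genes tested did so. FASN was 0.45 higher in replicate 2 of TCN1_OE and 0.43 higher in replicate 2 of NC on the log2 CPM scale. SREBF1 was 0.37 and 0.38 higher, SCAP 0.35 and 0.52, and LSS 0.43 and 0.38 in replicate 2 of TCN1_OE and of NC. By contrast SCD differed by 0.03 and 0.02 and INSIG1 by 0.02 and 0.01.

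**Figure D4:**
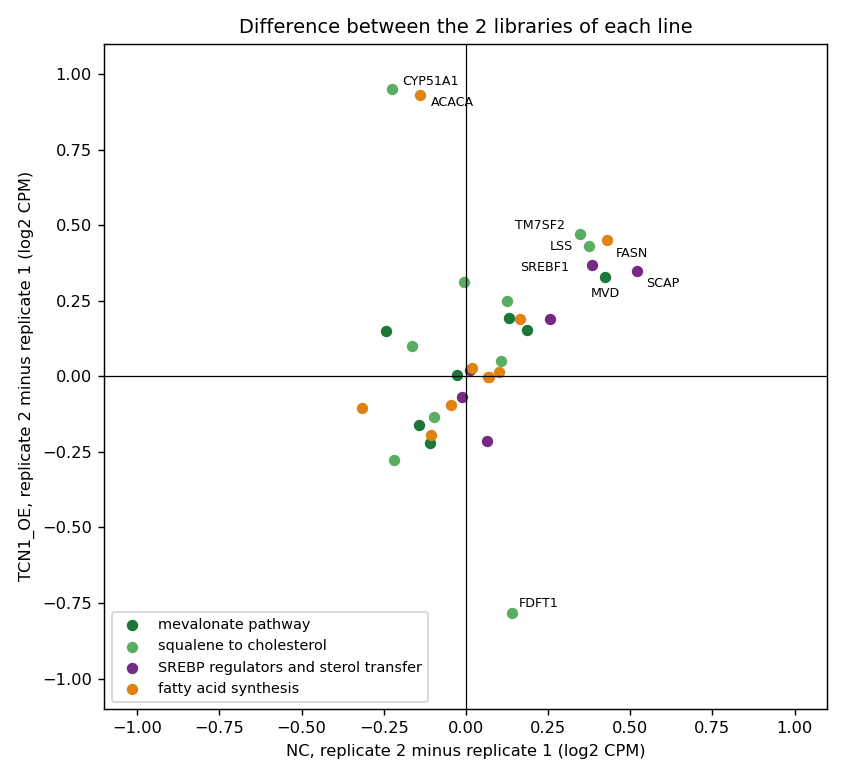
Replicate 2 minus replicate 1 on the log2 CPM scale, for TCN1_OE on the vertical axis and NC on the horizontal axis, 1 point per gene, coloured by role group. FASN, SREBF1, SCAP, LSS, MVD and TM7SF2 lie in the upper right, higher in replicate 2 of both lines, and the low-count genes CYP51A1, ACACA and FDFT1 differ widely within TCN1_OE alone.

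Of 91 other genes of sterol and fatty acid metabolism, 82 were tested and none passed edgeR, with 6 higher and 7 lower at an unadjusted p under 0.05, a share near the 6.00% and 6.81% of all genes tested. The limma fit on log2(FPKM + 0.5) called 0 of them, and only 0.00662% of all genes higher and 0% lower. DESeq2 called 2 of them higher, where it called 0.815% of all genes higher. The 2 were those with the smallest p among the higher genes. ACSL1, an acyl-CoA synthetase that activates fatty acids, had 13.2 and 13.4 FPKM in TCN1_OE and 9.41 and 9.40 FPKM in NC, at 0.50 ± 0.10 and an edgeR adjusted p of 0.0668. MYLIP, a ubiquitin ligase that is induced by the sterol sensor LXR and acts on lipoprotein receptors, had 16.0 and 15.8 FPKM in TCN1_OE and 10.3 and 11.2 FPKM in NC, at 0.57 ± 0.12 and an edgeR adjusted p of 0.069. Both were also called by edgeR with no filter on low counts, where it called 0.685% of all genes higher. The genes of sterol uptake, storage and efflux, MYLIP included, had 12 positive and 5 negative values with a median of 0.09.

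All 13 tested genes of the isoprenoid branches, which use mevalonate products for ubiquinone, dolichol and protein prenylation, lay below 0 on the log2 scale (median -0.08), and none was called. The count below 0 was 8 of 13 without NC replicate 1 and 8 of 13 without TCN1_OE replicate 2. The 2 with the smallest p among all lower genes of these lists were here. PDSS1, a subunit of the enzyme that makes the ubiquinone side chain, had 8.26 and 7.23 FPKM in TCN1_OE and 11.0 and 11.6 FPKM in NC, at -0.55 ± 0.15 and an edgeR adjusted p of 0.167. RABGGTB, a subunit of the Rab prenylating enzyme, had 9.91 and 8.64 FPKM in TCN1_OE and 12.4 and 11.7 FPKM in NC, at -0.38 ± 0.11 and an edgeR adjusted p of 0.186. With no filter on low counts RABGGTB was called, at an edgeR adjusted p of 0.0455, where that fit called 0.941% of all genes lower. The genes of SREBP processing and sterol sensing had 6 positive and 8 negative values with a median of -0.02, other sterol synthesis genes 2 and 7 with -0.09, and other fatty acid and glycerolipid genes 16 and 13 with 0.05.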

How the data were processed

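Counts and FPKM were used per gene for 4 libraries of polyA RNA. HISAT2 and HTSeq 0.13.5 on GRCh38 are named in the submitters' processing notes, without an annotation release or the settings for strand and multi-mapping. The deposited count is a raw count per gene. The deposited FPKM was made by the authors from that count: the gene length it implies was whole within 1e-04 bp for 100% of values above 0. The main test was edgeR's quasi-likelihood test (version 4.0.16 in R 4.3.3, on the counts, with TMM, robust estimation, filterByExpr at a minimum count of 10 and group as the only term), fitted on all 15113 genes that passed, with Benjamini-Hochberg adjustment and a threshold of 0.05. The step was tested on simulated counts. For 2 against 2 libraries the smallest two-sided p of an exact permutation test is 0.333. The SE is the log2 fold change over the root of F.

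The genes and lists were chosen with earlier results of these data known. All 34 genes are named, with values per library for the 4 of each role group with the smallest p and the highest by FPKM. Those of INSIG2, SCAP, HMGCS1, SQLE, FASN, ACLY, FDFT1, ACACA, FABP4, KRT1 and KRT10 were added after their values were seen. Of other pathway genes, the 2 with the smallest p in each direction are named. Alternatives were RLE factors, DESeq2 1.42.0, limma 3.58.1, other filters, a replicate block and leaving out each library. Positions and overlaps between genes come from GENCODE 29 (GRCh38), whose gene lengths differ for some genes from those the FPKM implies.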

Additional observations from a re-analysis of the deposited data

How the results depend on the processing

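The count of genes called was 0 higher and 0 lower in the fit reported. It became 1 higher with DESeq2 (SCD), where 0.815% of all genes were called higher, against 0.285% in the fit reported. With no filter on low counts it became 1 higher (STARD4, edgeR adjusted p of 0.0298), where 0.685% of all genes were called higher. In the fits that left out 1 library, the lone library of a line is assumed to vary like the others, so only their fold changes are given below. At the low counts of FDFT1, CYP51A1 and ACACA the intervals are wide.

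The replicate numbers are shared between the lines, but no label says that a number marks a shared culture or day. The replicate difference in TCN1_OE correlated with that in NC at r = 0.15 across 15113 genes, which are not independent replicates. With a replicate block edgeR called 9 of the 33 genes higher (MVK, MVD, SC5D, INSIG1, STARD4, SREBF1, SREBF2, SCD and ACSL3) and 5 lower (SCAP, ACLY, ELOVL5, ELOVL6 and LPIN1), where it called 8.05% of all genes higher and 11.0% lower. Of the 82 other pathway genes it called 7 higher, MYLIP and ACSL1 among them, and 11 lower, with PDSS1, RABGGTB and ICMT of the isoprenoid branches. ACACA stood at -0.038 under the replicate block, against 0.031 without it.

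Leaving out each library in turn, the median log2 fold change of the mevalonate genes ranged from 0.00012 to 0.19, that of the fatty acid genes from -0.18 to 0.051, that of the regulators from 0.096 to 0.35, and the sterol minus fatty acid difference from 0.014 to 0.21. The sign of the following genes, none of them called in the fit reported, also changed. Their ranges were -0.52 to 0.43 for ACACA, -0.036 to 0.98 for CYP51A1, -0.16 to 0.091 for DHCR7, -0.050 to 0.26 for EBP, -0.23 to 0.24 for FASN, -0.75 to 0.098 for FDFT1, -0.0074 to 0.025 for HMGCS1, -0.031 to 0.13 for IDI1, -0.085 to 0.13 for INSIG2, -0.20 to 0.079 for MSMO1, -0.015 to 0.41 for MVD and -0.47 to 0.046 for SCAP. With no filter on low counts FASN stood at -0.0016 and HMGCS1 at -0.0076. The cause was not tested. STARD4, INSIG1, SC5D, SCD and ELOVL5 kept their direction under all 11 alternatives. So did many of the other genes, ACAT2, SQLE, LPIN1, ELOVL6, MVK, PMVK, SREBF1 and SREBF2 among them. A kept direction therefore does not set the former genes apart.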
